A study of Mus musculus with 12 samples.

Results

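The 8 genes described here carry thyroid hormone into brain cells, convert it, bind it or respond to it, and each of them was measured in hypothalamus from WT and *Gpr75*-/- mice on both diets. They are the receptors *Thra* and *Thrb*, their partner *Rxra*, the corepressor *Ncor1*, the transporter *Slco1c1*, the deiodinase *Dio2*, the binding protein *Crym* and the hormone-induced gene *Hr*. The genes were chosen by symbol, for their roles, with earlier results of these data known. *Hr* was taken in because an earlier look at these data had found it higher in chow-fed *Gpr75*-/- mice. That chow difference is therefore given as a description only. All 8 were found among the 16438 genes listed on both diets.

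The 12 mice were males of 8 weeks, with 3 in each of 4 groups: WT (+/+) on a chow diet, *Gpr75*-/- on a chow diet, and both genotypes on a HFD for 2 weeks from 6 weeks of age. All were *C57BL/6J*, with WT littermates as controls. The *Gpr75*-/- allele is a germline CRISPR/Cas9 null in every tissue, in which the first codons are followed by a short aberrant stretch and a stop, so that mRNA can still be made. Whether the mice with the null came from 1 founder is not given in the sources used here.

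The deposited values used here are summaries of 6 mice or 3 mice per gene, and the authors' own standard errors and tests were not used. No value of a single mouse, no SD and no test between genotypes therefore enters any result. For each gene the values used give a mean normalized count over the 6 mice of a diet and a mean for each group on a log scale. The group means were read back as counts per 1000000 counts (CPM). Because they were rounded to 2 decimals before deposit, each difference below carries rounding bounds, the lowest and highest difference that rounding allows. These bounds say nothing of the spread between mice, and they hold only if the group means were read back rightly, which is uncertain below 2 CPM. A difference was counted when the group means were more than 1.2-fold apart, which is a size and not a test.

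The mean normalized counts summed to 18280462 on chow (16855 genes) and 19420111 on the HFD (16744 genes), the depth of an average mouse. *Gpr75* itself had group means of 16.7 CPM in WT and 24.6 CPM in *Gpr75*-/- mice on chow, and of 19.9 and 18.4 CPM on the HFD. Its mRNA level does not check the genotype labels, given the kind of allele. All 8 hypothalamus markers were listed on both diets, from 2.00 CPM for *Agrp* in HFD-fed WT mice to 292 CPM for *Pmch* in HFD-fed *Gpr75*-/- mice. Their summed level was 616 CPM in WT and 641 CPM in *Gpr75*-/- mice on chow, against 617 and 751 CPM on the HFD. Choroid plexus markers, 7 of 7 listed on chow, summed to 41.0 CPM in WT and 69.0 CPM in *Gpr75*-/- mice, with *Kcnj13* and *Aqp1* listed at 0 on the deposited scale in WT. These are sums of means on a log scale, which a single high mouse moves little. The mean count of *Ttr* alone over the 6 chow-fed mice corresponded to 159 CPM. On the HFD 4 of the 7 were analysed, at 35.2 and 34.2 CPM. Red blood cell markers, 5 of 5, summed to 277 and 443 CPM on chow, where all 5 were past 1.2-fold higher in *Gpr75*-/- mice beside 6.06% of all genes, and to 314 and 280 CPM on the HFD. Microglia markers summed to 142 and 135 CPM on chow and 139 and 132 CPM on the HFD. The part of these tissues in the results below was not tested.

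Thyroid hormone reaches the brain mostly as thyroxine, which crosses the blood-brain barrier through transporters such as the product of *Slco1c1*. Glia then convert it to triiodothyronine, the active hormone, with the deiodinase encoded by *Dio2*, which in the hypothalamus is made by tanycytes and astrocytes. In neurons the active hormone binds receptors of the *Thra* and *Thrb* genes, which sit on DNA with a retinoid X receptor. Without hormone the receptors recruit *Ncor1* complexes that hold target genes down, and with hormone they exchange these for coactivators. The hypothalamus both responds to the hormone and, through *Trh* neurons, sets its level in blood.

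Per kilobase of exon, *Thra* had the highest level of the 8 genes and *Crym* the lowest on both diets. On this scale, the mean count as CPM per kilobase, *Thra* was at 53.7 on chow and 51.9 on the HFD, above 95.2% and 94.8% of the genes of each diet. *Ncor1* followed at 19.1 and 17.8. The next genes lay close together, with *Slco1c1* at 9.38 on both diets, *Rxra* at 8.72 and 9.43, *Hr* at 7.61 and 7.98, and *Thrb* at 6.08 and 5.76. *Dio2* was at 2.35 and 2.47, and *Crym* at 2.25 and 0.875. The order depended on the length used. With the longest transcript, *Slco1c1* was at 15.3 on both diets, above *Rxra* at 9.71 and 10.5, *Thra* was at 101 and 97.7, and *Crym* (2.85) stood above *Dio2* (2.35) on chow. The spread between mice was not measured here, so it cannot be said which neighbors in this order differ beyond it.

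**Figure D1:**
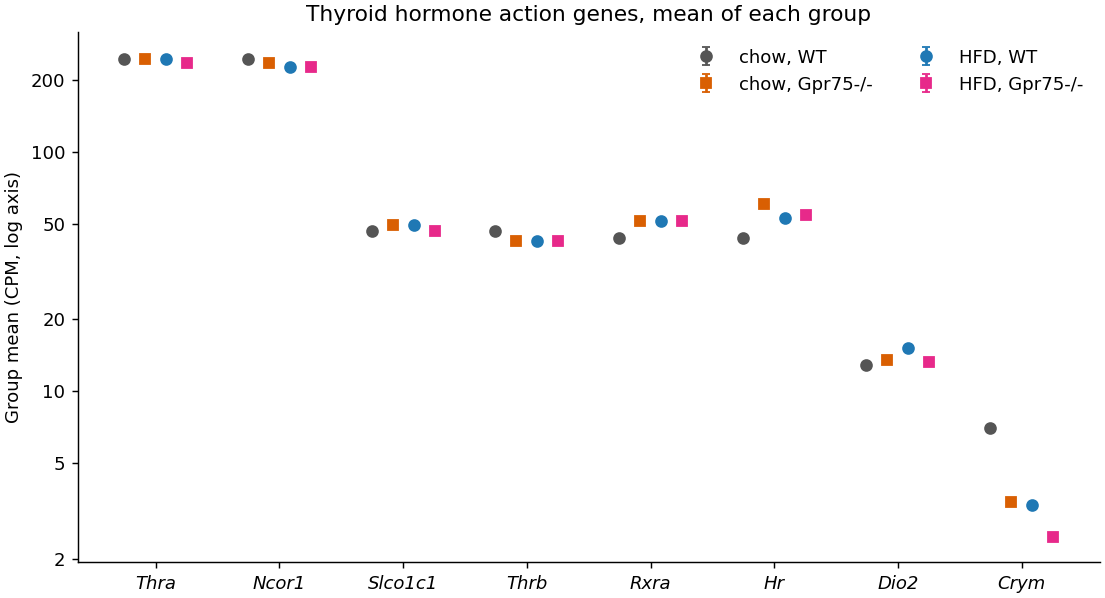
Mean level of the 8 genes in each of the 4 groups of 3 mice, in CPM on a log axis, with circles for WT and squares for *Gpr75*-/- mice. Bars for rounding are narrower than the symbols. *Thra* and *Ncor1* lie between 225 and 245 CPM in every group, *Hr* runs from 43.8 to 60.4 CPM and *Crym* from 2.46 to 7.02 CPM.

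*Hr* (ENSMUSG00000022096, chromosome 14, 70789652 to 70810988) encodes hairless, a nuclear corepressor that thyroid hormone induces in the brain. On chow its group mean was 43.8 CPM in WT and 60.4 CPM in *Gpr75*-/- mice. The *Gpr75*-/- mean was thus 1.38-fold higher, a log2 difference of 0.46 with rounding bounds of 0.42 to 0.51. The approximate counting error of that difference was 0.04 (SE, log2), at a mean of 962 normalized counts over the 6 mice. On the HFD the means were 53.0 CPM in WT and 54.7 CPM in *Gpr75*-/- mice, a log2 difference of 0.05 (rounding bounds 0.00 to 0.09). The genotypes stood apart on chow and close together on the HFD. *Hr* was lowest in chow-fed WT mice and highest in chow-fed *Gpr75*-/- mice, and both HFD groups lay between them. The choroid plexus and red blood cell markers given above were likewise higher in *Gpr75*-/- mice on chow, and their part in the *Hr* values was not tested.

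Among the 8 genes, *Hr* was the 1 whose mean was more than 1.2-fold higher in *Gpr75*-/- mice on chow, where 6.06% of all listed genes were. Since *Hr* was chosen on this contrast, nothing is read from that count. On the HFD none of the 8 genes was more than 1.2-fold higher, against 4.83% of all genes. The median log2 difference of the 8 genes was 0.03 on chow and -0.03 on the HFD, beside 0.00 for all genes on both. Without *Hr* it was 0.00 on chow and -0.06 on the HFD.

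An indirect sign of spread between mice could be had for a few of the genes. If the group means are means on a log scale, each lies below the arithmetic mean, and more so the more the mice differ. The log2 gap between the mean count of the 6 mice and the mean of their 2 group levels was therefore compared with that of genes of like mean count. For *Hr* on the HFD this gap was 0.04, with rounding bounds of 0.01 to 0.06, and at its lower bound it was larger than in 64.9% of those genes, so an unusual spread cannot be read from it. For *Hr* on chow it was 0.01 (rounding bounds -0.01 to 0.04). *Dio2* on chow had a gap of 0.05 (0.03 to 0.06), larger than in 97.3% of its neighbors in mean count even at the lower bound. Those of *Crym* are given with its values.

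*Thra* (ENSMUSG00000058756, chromosome 11, 98631464 to 98659832), the main thyroid hormone receptor gene of neurons, had the same group mean of 245 CPM in both genotypes on chow. On the HFD it was at 245 CPM in WT and 235 CPM in *Gpr75*-/- mice, a log2 difference of -0.06 (rounding bounds -0.12 to 0.00). At this level 1 rounding step is 0.06, so both differences are at most 1 step. *Thra* overlaps *Nr1d1* on the opposite strand, with 263 shared exon bases of 4614, and it is not given whether counting used the strand. *Nr1d1*, a clock repressor, differed by -0.05 and 0.05 between the genotypes.

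*Thrb* (ENSMUSG00000021779, chromosome 14, 4431611 to 4809435) encodes the receptor that mediates feedback on *Trh*. Its chow means were 46.6 CPM in WT and 42.5 CPM in *Gpr75*-/- mice, a log2 difference of -0.13 (rounding bounds -0.18 to -0.09). On the HFD both genotypes were at 42.5 CPM. Neither *Thra* nor *Thrb* was past 1.2-fold on either diet.

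*Rxra* (ENSMUSG00000015846, chromosome 2, 27566452 to 27652969), a partner of both receptors, was at 43.8 CPM in WT and 51.3 CPM in *Gpr75*-/- mice on chow. This log2 difference of 0.23 (rounding bounds 0.18 to 0.27) had the same direction as that of *Hr* and stood just inside the 1.2-fold limit of 0.26. It lay outside the range of -0.17 to 0.15 that holds 90% of the genes within 1.5 times its mean count. On the HFD both genotypes were at 51.3 CPM. The chow-fed WT group was the lowest of the 4.

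*Ncor1* (ENSMUSG00000018501, chromosome 11, 62207252 to 62349367), the corepressor, was at 245 CPM in WT and 235 CPM in *Gpr75*-/- mice on chow, a log2 difference of -0.06 (rounding bounds -0.12 to 0.00). On the HFD both genotypes were at 225 CPM. These levels differed by at most 1 rounding step within a diet.

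*Slco1c1* (ENSMUSG00000030235, chromosome 6, 141470094 to 141515903), the thyroxine transporter of brain endothelium and astrocytes, was at 46.6 CPM in WT and 49.7 CPM in *Gpr75*-/- mice on chow, and at 49.7 and 46.6 CPM on the HFD. The log2 differences were 0.09 (rounding bounds 0.05 to 0.14) and -0.09 (-0.14 to -0.05). They were equal in size and opposite in sign, and each was inside the range of 90% of genes of like mean count. Endothelial markers, 5 of 5 listed, summed to 273 CPM in WT and 277 CPM in *Gpr75*-/- mice on chow, and to 284 and 275 CPM on the HFD, while the median marker difference was -0.07 on chow and -0.09 on the HFD. On chow 4 of the 5 were lower in *Gpr75*-/- mice and *Slc2a1*, the glucose transporter, was higher (0.16), which carried the sum. The part of vessel content in these values was not tested. In whole tissue, fewer cells of a type and less RNA per cell cannot be told apart, here and in all results that follow.

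*Dio2* (ENSMUSG00000007682, chromosome 12, 90691326 to 90705212), which makes the active hormone, was at 12.9 CPM in WT and 13.5 CPM in *Gpr75*-/- mice on chow, a log2 difference of 0.07 (rounding bounds 0.03 to 0.10). On the HFD it was at 15.2 CPM in WT and 13.2 CPM in *Gpr75*-/- mice, a difference of -0.20 (-0.23 to -0.17) at an approximate counting error of 0.07 (SE). The HFD value lay at the lower edge of the range of its neighbors in mean count, -0.19 to 0.21. Tanycyte markers, of which 6 of 7 were analysed, summed to 172 and 168 CPM in WT and *Gpr75*-/- mice on chow, and to 155 and 136 CPM on the HFD, most of it from *Col25a1*, which neurons also express. On the HFD both *Dio2* and this sum were lower in *Gpr75*-/- mice. Of the 6 markers 4 were lower and 2 higher there, beside 36.1% and 47.2% of all genes. The higher ones were *Frzb* (5.32 CPM in WT and 6.19 CPM in *Gpr75*-/- mice) and *Fndc3c1* (1.26 and 1.87 CPM). *Adm* had the lowest difference (3.41 and 2.12 CPM). Astrocyte markers summed to 1454 CPM in WT mice on chow and 1413 CPM in *Gpr75*-/- mice, against 1455 and 1468 CPM on the HFD. The part of these cell types in the *Dio2* values was not tested.

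*Crym* (ENSMUSG00000030905, chromosome 7, 119785603 to 119801334) encodes mu-crystallin, which binds triiodothyronine in the cytosol. It showed the largest genotype difference of the 8 genes on both diets. On chow it was at 7.02 CPM in WT and 3.46 CPM in *Gpr75*-/- mice, a log2 difference of -1.02 (rounding bounds -1.04 to -0.998). On the HFD it was at 3.37 and 2.46 CPM, a difference of -0.45 (-0.47 to -0.44). Read back with 1 added to CPM, these differences would be -1.29 and -0.70. At 2 to 10 CPM, where *Crym* lies, the scale used here met the group means within 0.01 for 49.9% of genes on chow and 55.0% on the HFD, and the scale with 1 added for 0% on both. *Crym* was the lower member past 1.2-fold on each diet, where 5.48% of all genes on chow and 3.91% on the HFD were. Its group mean was lower in *Gpr75*-/- mice on both diets, and lower on the HFD than on chow in both genotypes.

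These *Crym* values rest on few reads, and on chow also on mice that differed. Its mean was 140 normalized counts on chow and 57.6 on the HFD, with approximate counting errors of the difference of 0.10 and 0.16 (SE, log2). On chow the mean count of the 6 mice corresponded to 7.64 CPM, more than either group mean on the log scale, and the gap of 0.55 was larger than in 99.9% of genes of like mean count. The chow-fed mice of at least 1 group were thus unlike each other, and which mice were high or low is not known. The chow difference is one of means on a log scale, and the order of the arithmetic means of the genotypes is not known. On the HFD the gap was 0.03 (rounding bounds 0.02 to 0.04), larger than in 70.7% of neighbors in mean count and in 43.3% at its lower bound.

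A gene of neighboring forebrain was lower in *Gpr75*-/- mice on chow as well. *Ppp1r1b*, a marker of striatal neurons, was at 27.4 CPM in WT against 17.1 CPM in *Gpr75*-/- mice, a log2 difference of -0.68. Its gap was 0.24, above 99.9% of genes of like mean count. On the HFD it differed by 0.07. Of the 6 markers of neighboring forebrain, 2 were past 1.2-fold lower on chow and none was higher, beside 5.48% and 6.06% of all genes. On the HFD 1 was lower and 1 higher, beside 3.91% and 4.83%. *Slc17a7*, a vesicular glutamate transporter of cortical neurons, was the lower one, at 28.2 CPM in WT and 20.4 CPM in *Gpr75*-/- mice (-0.46), and *Neurod6* the higher one, at 1.32 and 2.16 CPM (0.71). The whole list summed to 435 CPM in WT and 430 CPM in *Gpr75*-/- mice on chow, and to 359 and 305 CPM on the HFD, with *Tcf7l2*, also a gene of thalamus, as its largest part. The part of the dissection border in the *Crym* values was not tested.

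**Figure D2:**
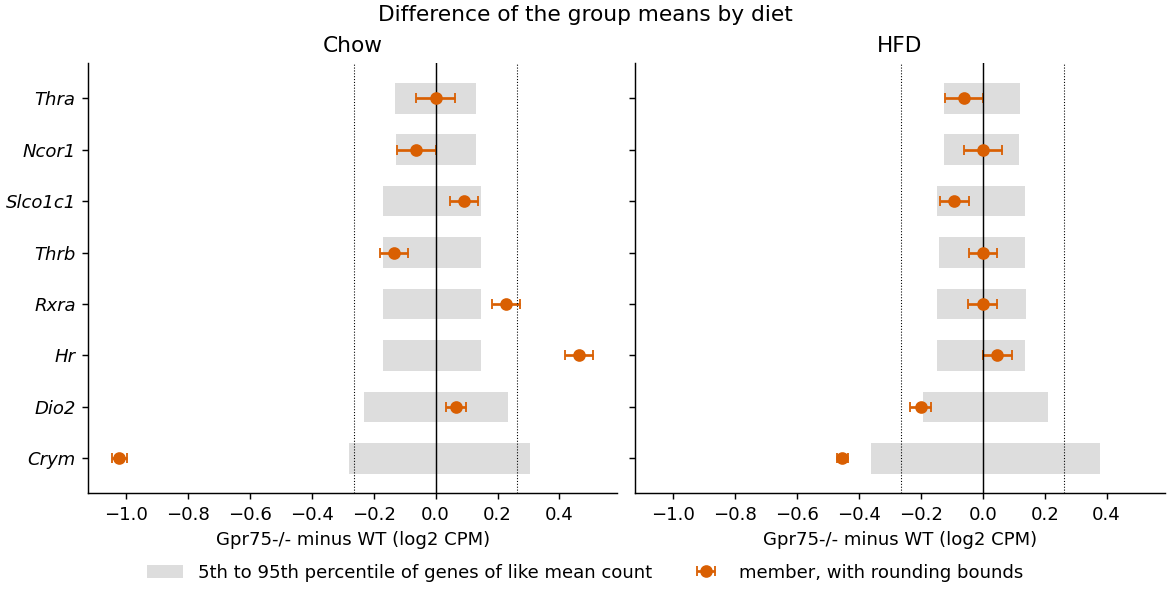
Difference of the group means, *Gpr75*-/- minus WT, in log2 CPM for the 8 genes on chow (left) and the HFD (right), with bars for the rounding bounds. Gray bands hold 90% of the genes within 1.5 times each gene's mean count, and dotted lines mark 1.2-fold. *Rxra* (0.23) and *Crym* (-1.02) lie outside their bands on chow, as does *Hr* (0.46), which was chosen on that difference, and *Crym* (-0.45) and, by a narrow margin, *Dio2* (-0.20) on the HFD.

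Whether the genotype difference was itself different on the HFD was not tested. Values of single mice were not there, and the authors' standard errors were not used. Each diet has its own WT mice. For *Hr* the HFD difference was lower than the chow difference by 0.42 on the log2 scale (rounding bounds 0.32 to 0.51 lower), a value that includes the chow difference on which *Hr* was chosen. It was lower by 0.27 for *Dio2*, 0.23 for *Rxra* and 0.18 for *Slco1c1*. It was higher by 0.57 for *Crym* and 0.13 for *Thrb*. For *Thra* and *Ncor1* it moved by 0.06, within rounding.

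The levels on the diets come from 2 tables that were normalized separately, so they are set side by side with no test. In WT mice *Hr* was 1.21-fold higher on the HFD than on chow (rounding bounds 1.17 to 1.25), *Dio2* 1.18-fold and *Rxra* 1.17-fold. *Crym* was at 0.480 of its chow level. In *Gpr75*-/- mice *Hr* was at 0.906 of its chow level (0.877 to 0.936), *Dio2* at 0.977, *Crym* at 0.711, and *Rxra* had the same mean on both diets. The *Hr* values include the chow means on which it was chosen, and nothing is read from them. *Thra*, *Thrb*, *Ncor1* and *Slco1c1* were within 1.10-fold over the 4 groups.

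**Figure D3:**
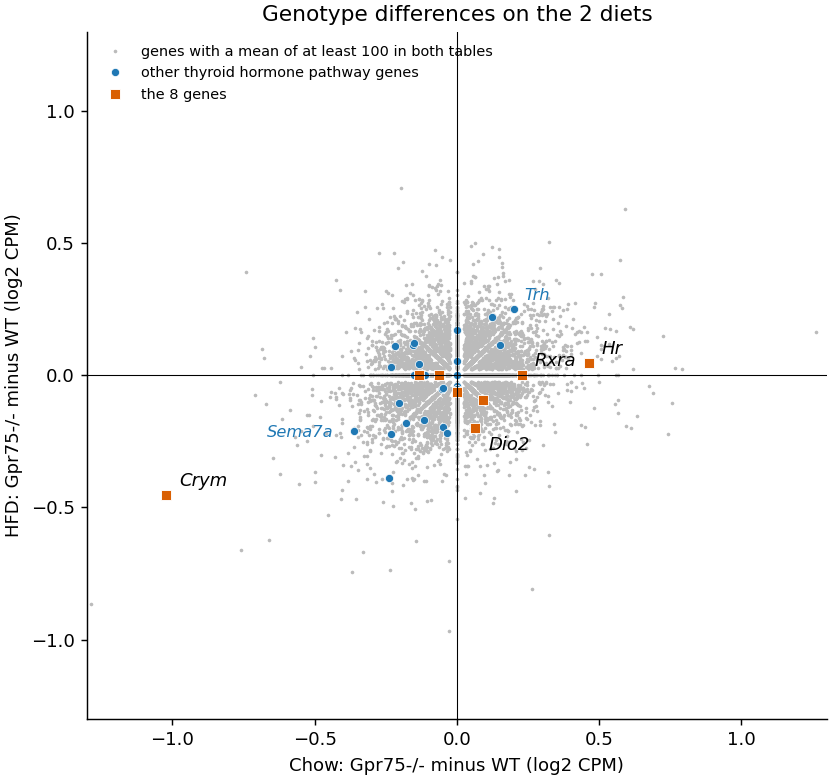
Genotype difference of each gene on chow (horizontal) against the HFD (vertical), both *Gpr75*-/- minus WT in log2 CPM. Gray points are the 12331 genes with a mean of at least 100 in both tables, blue points other genes of thyroid hormone action and orange squares the 8 genes. *Ttr* falls outside the axes. *Hr* lies far to the right at a height near 0, and *Crym* at the lower left.

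Likeness to *Hr* was measured as the distance between the pairs of log2 differences on chow and the HFD. The genes nearest to it among 12330 with a mean of at least 100 on both diets were *Slc25a34*, *Slc2a12*, *Hspa1a*, *Zfp300* and *Tmem181b-ps*. Their distances ran from 0.04 to 0.06, and the next gene was at 0.07. *Slc2a12*, a sugar transporter, differed by 0.51 on chow and 0.06 on the HFD. *Hspa1a*, a heat-shock chaperone, differed by 0.44 and 0.09. *Slc25a34*, a mitochondrial carrier, differed by 0.49 and 0.07. *Zfp300* differed by 0.44 on chow and the pseudogene *Tmem181b-ps* by 0.50, and both had equal group means on the HFD. Reads of *Tmem181b-ps* can be shared with similar copies. Likeness over 2 differences is a weak measure, and rounding alone moves each by up to 0.05. All but *Tmem181b-ps* had means of 107 to 207 normalized counts, fewer than *Hr*, and counting error was left out of the distances. The chow difference of *Hr* is also the one on which it was chosen.

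Of 33 other genes of the pathway, 31 were analysed. On chow 1 was past 1.2-fold higher and 1 lower, and on the HFD 2 were lower, beside the 6.06% higher and 5.48% lower of all genes on chow and the 4.83% and 3.91% on the HFD. The median log2 difference of the list was -0.05 on chow and 0.00 on the HFD, and that of all genes was 0.00 on both diets. *Dio1* and *Dio3* were not analysed here.

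Of the other genes known to respond to thyroid hormone in brain, all 8 had a lower group mean in *Gpr75*-/- mice on chow, beside 41.0% of all genes. Their log2 differences ran from -0.36 to -0.11 with a median of -0.15, and 7 of the 8 were inside the range of 90% of genes of like mean count. No comparison with *Hr* is drawn, since it was chosen for being high there. *Klf9*, a hormone-induced transcription factor, was at 144 CPM in WT and 133 CPM in *Gpr75*-/- mice. *Dbp* was at 24.6 and 22.1 CPM, and *Nrgn*, the neuronal protein neurogranin, at 76.6 and 69.1 CPM. *Sema7a* was the 1 gene past 1.2-fold, at -0.36 (rounding bounds -0.39 to -0.33) from 11.6 CPM in WT. On the HFD the list ran from -0.21 (*Sema7a*) to 0.12 (*Flywch2*) with a median of 0.00, with none past 1.2-fold. *Klf9* and *Nrgn* had equal means in both genotypes there.

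One gene of this list is also a myelin gene. *Mbp*, myelin basic protein, was at 3838 CPM in WT and 3394 CPM in *Gpr75*-/- mice on chow and at 4085 and 3608 CPM on the HFD, differences of -0.18 on each diet. The 6 oligodendrocyte markers, which do not include *Mbp*, were all lower in *Gpr75*-/- mice, beside 41.0% of all genes on chow and 36.1% on the HFD. Of them 2 on chow and 4 on the HFD were past 1.2-fold lower, beside 5.48% and 3.91% of all genes. They summed to 7554 CPM in WT and 6317 CPM in *Gpr75*-/- mice on chow and to 7870 and 6636 CPM on the HFD. The part of oligodendrocytes in the *Mbp* values was not tested.

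The other transporters, receptors and cofactors stayed inside 1.2-fold on both diets. *Rxrg* on chow and *Tbl1xr1* on both diets lay outside the range of 90% of genes of like mean count. On the HFD *Ncoa2* and *Ncoa3* did too. *Slc7a5*, *Slc7a8* and *Slco1a4* had equal group means on chow. *Slc16a10* was the lowest of the 5 transporters, at -0.20 on chow and -0.10 on the HFD, from a mean of 30.4 and 31.8 normalized counts. Unlike *Rxra*, the other retinoid X receptor genes were lower in *Gpr75*-/- mice on chow, with *Rxrg* at -0.22 and *Rxrb* at -0.13, and on the HFD they were at 0.11 and 0.04.

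Among the 5 other genes of the corepressor complex, *Tbl1xr1* had the largest difference on both diets, at -0.23 on chow (54.7 CPM in WT and 46.6 CPM in *Gpr75*-/- mice) and -0.22 on the HFD (46.6 and 40.0 CPM). Its rounding bounds, -0.28 to -0.18 on chow and -0.27 to -0.18 on the HFD, reach past 1.2-fold. *Hdac3*, the deacetylase of the complex, was at 138 CPM in both genotypes on the HFD. The 6 coactivator genes ran from -0.12 (*Crebbp*) to 0.00 (*Ncoa1* and *Ncoa3*) on chow and from -0.19 (*Ncoa2*) to 0.17 (*Ncoa3*) on the HFD.

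**Figure D4:**
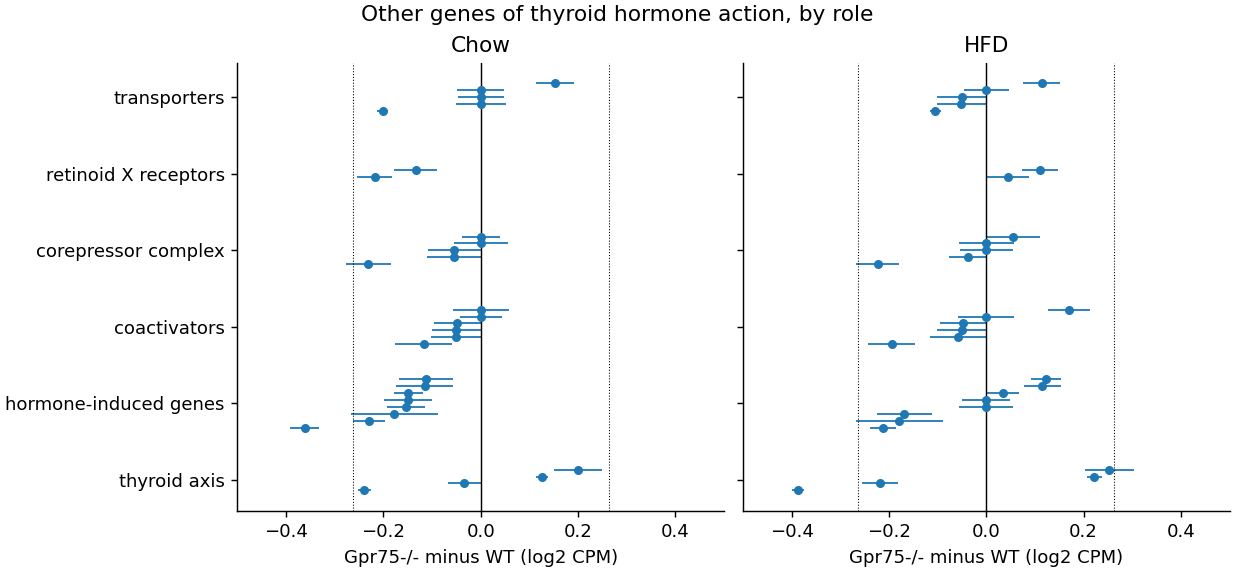
Difference of the group means, *Gpr75*-/- minus WT in log2 CPM, for the other genes of thyroid hormone action by role, on chow (left) and the HFD (right). Each point is a gene with its rounding bounds, dotted lines mark 1.2-fold, and *Ttr* is left out. All 8 hormone-induced genes lie below 0 on chow, with *Sema7a* the lowest at -0.36.

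Of the thyroid axis, *Trh*, the releasing hormone that starts it, had a higher mean in *Gpr75*-/- mice on both diets. It was at 69.1 CPM in WT and 79.4 CPM in *Gpr75*-/- mice on chow, a difference of 0.20 (rounding bounds 0.15 to 0.25), and at 71.5 and 85.2 CPM on the HFD, a difference of 0.25 (0.20 to 0.30). Both were inside 1.2-fold and above the range of 90% of genes of like mean count, which reached 0.15 on chow and 0.11 on the HFD. The hypothalamus markers had a median difference of 0.06 on chow and 0.35 on the HFD, where 6 of 8 were past 1.2-fold higher beside 4.83% of all genes, and their part in the *Trh* values was not tested. *Trhr*, its receptor, was at -0.03 on chow and -0.22 on the HFD. *Tshr* (0.12 and 0.22) and *Tshb* (-0.24 and -0.39, the latter past 1.2-fold) had means from 32.6 to 43.4 normalized counts.

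*Ttr*, which encodes the thyroxine carrier transthyretin and is abundant in choroid plexus, had the widest values of the list. On chow it was at 5.59 CPM in WT and 12.9 CPM in *Gpr75*-/- mice, while the mean count of the 6 mice corresponded to 159 CPM, so that at least 1 chow-fed mouse was far above the group means on the log scale. On the HFD it was at 3.60 and 1.35 CPM. The other choroid plexus markers on chow were all past 1.2-fold higher in *Gpr75*-/- mice too, beside 6.06% of all genes, from 0.39 for *Clic6* to 1.26 for *Kl*, counting *Kcnj13* and *Aqp1*, whose WT means were listed at 0.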

How the data were processed

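Hypothalamus RNA-Seq libraries were made from 12 mice with a SMART-Seq mRNA kit and read from both ends (NovaSeq). The submitters' processing notes name STAR, featureCounts, StringTie and DESeq2 with the build GRCm39, and the deposited coordinates are given in that build. Each diet has 1 deposited table, which gives summaries and nothing per mouse. The signal deposited per gene is the mean over 6 mice of counts divided by size factors. The group means were deposited on a log2 scale, rounded to 2 decimals, which is not described. The authors' fold changes, standard errors, test statistics and p-values in the same tables are their own comparisons and were not used.

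The scale of the group means was worked out from the values. With the mean count taken as CPM of the table's total, log2(log2(CPM) + 1) met the average of the 2 group means within 0.01 for 98.4% of 10755 genes of at least 10 CPM on chow and 99.0% of 10722 on the HFD, against 50.0% and 51.5% with 1 added to CPM first. Each group mean was read back by that formula. It was taken to be a mean on a log scale, which a single high mouse moves less than an arithmetic mean. Whether mice were averaged on the log2 or the doubly log2 scale is not given in the sources used here, and this affects what the group means and the gap stand for. At 1 to 2 CPM the formula met the values within 0.01 for 8.99% of genes on chow and 8.78% on the HFD. Some genes there had group means well above the mean count (a gap of -0.20 for *Aqp1* and -0.15 for *Fndc3c1* on chow), which no mean on a log scale gives, so levels and differences near 1 CPM are uncertain. Rounding bounds come from an error of up to 0.005 in both groups. The counting error is the Poisson error of 2 groups of 3 mice at the mean normalized count and leaves out variation between mice. Lengths are the union of exons, or the longest transcript, in GENCODE vM21, matched by Ensembl identifier for 99.8% of genes. It has another build, and only lengths, strands and exon overlaps were taken from it. A count test had been planned for the case that values of single mice were there and could not be run.

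The members and lists were chosen with earlier results of these data known. All 8 members are named, the gene with the highest and the lowest difference in each class of the pathway list is named on each diet, except for a few genes not reported here, with other genes of that list as examples, and the genes most like *Hr* are the 5 at the smallest distance. Marker genes are named where they stand beside a member. The steps were tested on simulated data for genes with a mean of at least 100. Those data were written and read back by the same formula, so they cannot check the scale. Alternatives were ratios divided by the median of all genes, a mean of at least 100, a limit of 1.5-fold and the longest transcript, and, chosen after seeing the data, calls beyond rounding, 1 added to CPM, and genes within 1.5 times the mean of *Hr*. Scripts ran in Python 3.11.15, using pandas 2.3.3 and numpy 2.4.6, and plots were drawn by matplotlib 3.10.9.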

Additional observations from a re-analysis of the deposited data

How the results depend on the processing

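No paired analysis was possible because the tables hold no column for a single mouse, and for the same reason no mouse could be left out and no count test run. The genes past 1.2-fold on chow numbered 1021 higher and 924 lower in *Gpr75*-/- mice, and on the HFD 809 and 655. With a mean of at least 100 they were 265 and 277 on chow and 174 and 180 on the HFD. With a limit of 1.5-fold they were 104 and 87 on chow and 45 and 49 on the HFD. With 1 added to CPM, a setting chosen after seeing the data, they were 1796 and 1551 on chow and 1570 and 1304 on the HFD. Among genes within 1.5 times the mean of *Hr*, also chosen afterwards, they were 18 and 33 on chow and 4 and 27 on the HFD. The first and the last of these restrict the genes and so lower the count by construction, but the shares were lower too. With a mean of at least 100 they were 2.13% higher and 2.23% lower on chow and 1.39% and 1.44% on the HFD. Within 1.5 times the mean of *Hr* they were 0.569% and 1.04% on chow and 0.129% and 0.872% on the HFD. Dividing by the median ratio changed none of the counts or the 16 member differences, since the median log2 difference was 0.00 on both diets.

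Counting only genes beyond rounding left *Hr* on chow and *Crym* on both diets past the limit. With 1 added to CPM, the *Crym* differences were -1.29 on chow and -0.70 on the HFD, and the other 14 member differences moved by less than their rounding bounds. The longest transcript raised the level per kilobase of 7 genes on each diet and left *Dio2* as it was. Among the members, *Crym* had the largest approximate counting error on each diet, 0.10 on chow and 0.16 on the HFD (SE, log2). The spread between mice was not measured here for any gene, since the authors' standard errors were not used. For *Crym* on chow the gap of 0.55 was an indirect sign that mice differed. Whether depth or this spread limits *Crym* more was not tested.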
